A study of Mus musculus with 18 samples.

Results

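The cytosolic ribosomal protein genes of mouse liver were taken as the protein-coding genes whose symbol is Rpl or Rps followed by a digit, together with Rplp0, Rplp1, Rplp2 and Rpsa, with the Rps6k kinase genes left out. This gave 93 genes of 52230 with a deposited transcript, and 84 of them were among the 10938 genes tested, which had at least 10 estimated counts in at least 4 of the 18 livers. The livers came from GCKR-P446L mice on the B6N background, a knock-in line that carries a proline (P) to leucine (L) exchange in glucokinase regulatory protein, the inhibitor of glucokinase in hepatocytes. PP denotes mice with the proline form, the wild type, and LL mice with the leucine form, and all were fed standard chow. The males were 4 PP and 4 LL mice and the females 5 PP and 5 LL mice, with 1 library each, and the labels give ages of 9 to 14 weeks, with means of 12.2 in PP males, 13.2 in LL males, 11.0 in PP females and 12.4 in LL females, whereas the study's design text gives 14 weeks for all. Single mice are named by group and replicate number, as in male PP 4. The comparisons ask whether ribosomal protein mRNAs differ by genotype within each sex, by sex within each genotype, and with the fragment length of the library. The quantification tables hold no base calls, so the genotypes were taken from the labels, and each p-value refers to the spread between these mice.

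The cytosolic ribosome is built from a small (40S) and a large (60S) subunit, each made of ribosomal RNA and single copies of most ribosomal proteins, which are named Rps and Rpl after the subunit. Their mRNAs are short, abundant and present in all cells, and most start with a C followed by a run of pyrimidines, the 5′ terminal oligopyrimidine (TOP) tract, through which growth signals carried by mTOR and the RNA-binding protein Larp1 set their translation. Mammalian genomes also hold very many processed pseudogenes of these genes, reverse-transcribed mRNAs inserted elsewhere without introns. Rplp0, the scaffold of the stalk of the 60S subunit, is often used as a reference gene in RT-qPCR.

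The sequences shown first are coding sequences of genes that have an intact copy elsewhere in the genome. Over the 84 genes, a median of 22.0% of the 31-base words of the annotated transcripts also occurred in another gene, and 71 genes had at least 1 pseudogene with at least 50% of its words in the gene, 297 such pseudogenes in all. For Rps23, a small-subunit protein at the decoding centre, the processed pseudogene Rps23-ps1 was identical to the coding sequence over all 425 compared bases. For Rpl27 the copy Gm11518 was identical over 408 bases, for Rps29 the copy Gm14303 over 168 bases and for Rpl27a the copy Gm7536 over 444 bases, in each case the whole coding sequence. Stretches of 60 coding bases are shown for Rps23, Rpl27 and Rpl27a, all in lower case because gene and copy do not differ in them, read from the GRCm39 assembly with the strand of the gene first.
Rps23 exon 2, chr13:91071706-91071765 (+), and Rps23-ps1, chr3:37768893-37768952 (+): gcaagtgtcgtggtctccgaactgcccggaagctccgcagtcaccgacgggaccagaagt
Rpl27 exon 2, chr11:101333551-101333610 (+), and Gm11518, chr11:93928395-93928454 (-): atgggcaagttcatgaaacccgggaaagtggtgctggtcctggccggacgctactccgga
Rpl27a exon 2, chr7:109118792-109118851 (+), and Gm7536, chr3:24387235-24387294 (+): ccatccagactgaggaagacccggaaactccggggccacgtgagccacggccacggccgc

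Of the 93 genes, which the annotation lists as protein coding, 5 themselves had at least 50% of their words in another of the genes and were counted as copies of it. Rpl10-ps3 was identical to Rpl10 over all 642 coding bases, and Rpl35rt differed from Rpl35 at 1 of 369 bases, which is shown in capitals (C41T, counted from 1 at the 5′ end of the stretch, with the base of Rpl35 first).
Rpl35 exon 2, chr2:38894748-38894807 (-): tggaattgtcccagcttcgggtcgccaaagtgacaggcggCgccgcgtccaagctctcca
Rpl35rt, chr1:156193724-156193783 (+): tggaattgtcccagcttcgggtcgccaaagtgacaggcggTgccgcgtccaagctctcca
Rpl9-ps6, Rps18-ps6 and Rps27rt, the other 3, had 0 counts in every library.

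The start sites carried the TOP tract in part. In the RefSeq promoter table (GRCm38.p6), 67 of the 93 genes had an entry, and a C followed by at least 4 bases that are each C or T lay within the 5 bases before and the 10 bases from the annotated start, on the transcribed strand, in 31 of them (46.3%), against 21.2% of 27025 genes with an entry. With the C required at the start base itself the share was 20.9%, against 3.01% of all genes. Windows of 30 bases, from 10 bases before the start, are shown for 4 genes to give examples with and without a match, the matched run in capitals. Only the searched range is marked, so runs that lie or continue beyond it, as in Rplp0 and Rpl27a, stay in lower case.
Rps6, chr4:86857348-86857377 (-): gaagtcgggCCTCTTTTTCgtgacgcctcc
Rplp2, chr7:141447641-141447670 (+): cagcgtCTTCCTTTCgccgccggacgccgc
Rpl27a, chr7:109519185-109519214 (+): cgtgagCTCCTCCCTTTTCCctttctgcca
Rplp0, chr5:115559457-115559486 (+): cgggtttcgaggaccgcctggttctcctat

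The libraries held 3794671 to 6613905 estimated counts. The fragment length of a library was taken as the median, over transcripts of 3000 bases or longer, of length minus effective length. Effective lengths did not follow transcript length alone. In male LL 4, Rpl36 (1 transcript, 383 bases) had 52.9 normalised counts and 26.7 TPM, a length-scaled abundance. Rpl35rt (1 transcript, 445 bases) had 263 and 384 there. The measure, which may hold more than fragment size (not tested), ran from 203 to 631 bases. It was 396, 516, 531 and 630 bases in PP males (the last 629.7), 415, 203, 427 and 582 in LL males, 458, 384, 631, 369 and 397 in PP females, and 294, 289.6, 376, 247 and 251 in LL females. The female LL libraries had lower values than the female PP libraries (291.5 against 448 bases, two-sided exact permutation test, p = 0.0159, 252 assignments). By the same test p was 0.286 for the genotypes in males, 0.333 for the sexes in PP and 0.143 for the sexes in LL mice. The hepatocyte markers Alb, Apoa1, Ttr, Cyp2e1, Pck1, Serpina1c and Tat summed to 463353 to 861382 normalised counts in every library, the 6 lymphocyte markers to 18.9 to 53.7 and the 6 Kupffer cell and macrophage markers to 435 to 1146, and no marker gene was at 0 in all libraries. Bulk liver RNA cannot tell fewer cells of a type from less RNA per cell.

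Ribosomal protein genes took about 1% of the counts. The share was 0.986, 0.918, 0.897 and 1.00% in PP males, 0.824, 1.07, 1.11 and 1.35% in LL males, 1.3, 1.24, 1.16, 1.33 and 1.03% in PP females, and 1.42, 1.09, 1.15, 1.39 and 1.43% in LL females. All female values lay above all male PP values, and the male LL values spread from below the male PP to the level of the females. The group means were 0.951 ± 0.0511% (SD, n = 4), 1.09 ± 0.214% (n = 4), 1.21 ± 0.122% (n = 5) and 1.29 ± 0.164% (n = 5). The major urinary protein genes alone took 25.8% of the counts in PP males, 15.3% in LL males, 3.81% in PP females and 3.19% in LL females. With these and the mitochondrial genes left out of the total, the shares were 1.47 ± 0.0429, 1.50 ± 0.217, 1.41 ± 0.152 and 1.53 ± 0.198%, and the 4 groups overlapped.

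**Figure D1:**
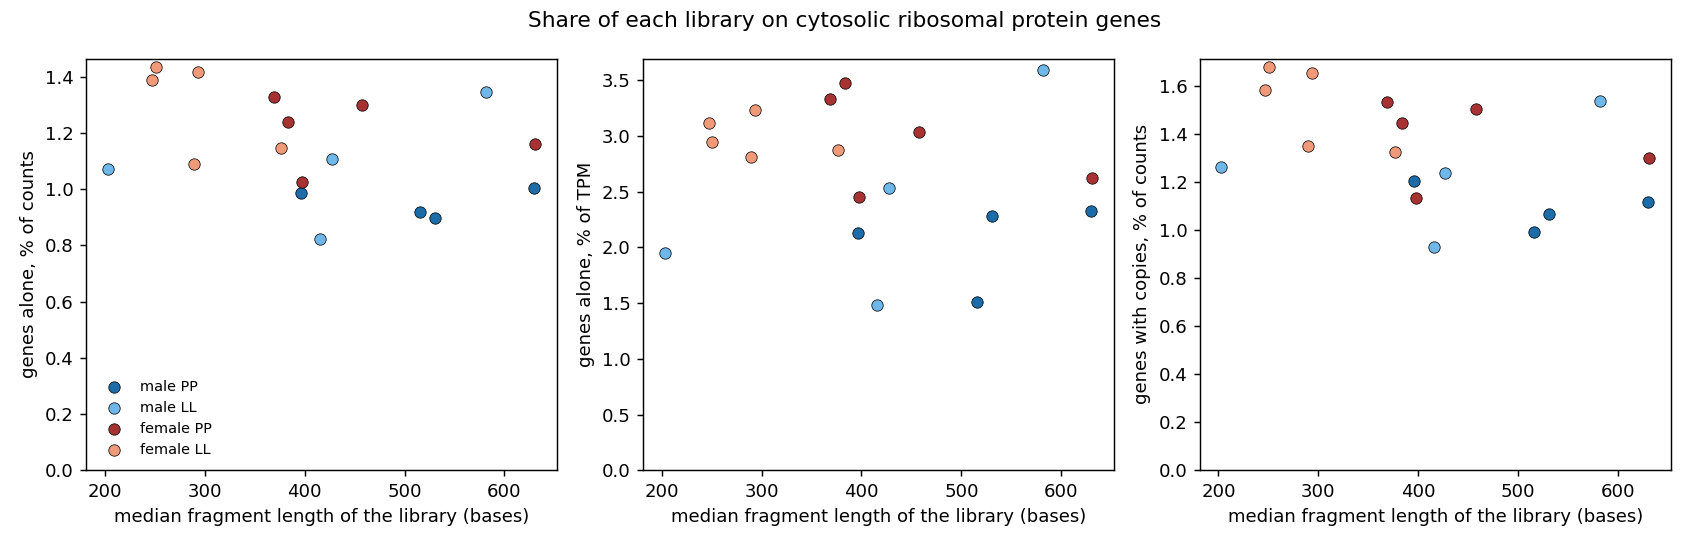
Share of each library on the ribosomal protein genes against the fragment length measure of the library in bases (horizontal axis). Vertical axes give percent of counts, percent of TPM, and percent of counts with pseudogene copies added. There is 1 point per mouse, coloured by group. The male PP points lie at 0.897 to 1.00% of counts, below all female points, and the lowest point is male LL 1 at 0.824%.

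Across the 18 mice the share of counts was weakly and negatively related to fragment length (Pearson r = -0.35, Spearman rho = -0.38), and without the 2 mice farthest from the median length r was -0.35. Within the 8 males r was 0.11, within the 10 females -0.43, and with group means removed 0.07. With mitochondrial and major urinary protein genes left out of the total r was -0.12 over the 18 mice. With copies added it was -0.43, and within the females rho was then -0.68. The share in TPM, the length-scaled abundance that Salmon gives, ranged from 1.48 to 3.59% and gave r = -0.13 with fragment length over the 18 mice. These are descriptions over libraries that also differ in sex and genotype.

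By length-scaled level, the genes spanned a wide range. Mean TPM over the 18 mice had a median of 283 and ran from 3.65 for Rpl12, a protein of the stalk base, to 822 for Rpl13a. The highest 3 were Rpl13a (822), Rpl41 (798), which encodes the smallest ribosomal protein, and Rps24 (764), and the lowest 3 were Rpl12, Rps19bp1 (8.01) and Rpl7l1 (29.4). Rps19bp1 is named after a ribosomal protein that it binds and Rpl7l1 is a relative of Rpl7, so neither is a standard component of the ribosome, while Rpl12 is, and 86.5% of the reads of Rpl12 and its copies were on the copies. TPM and counts could differ widely for 1 gene. Rps28, a small-subunit protein on a transcript of 381 bases on average, had 291, 3468, 169.9, 604 and 226 TPM in PP females and 99.4, 42.3, 159 and 66.0 TPM in PP males. Its counts, scaled by DESeq2 size factors, were 231, 348, 204, 368 and 169 in PP females and 165, 96.5, 159 and 136 in PP males. The mouse with 3468 TPM, female PP 2, was far above the others in TPM and second to female PP 4 in counts, and which transcripts of the gene held its reads was not tested. Levels between mice are given below as such normalised counts.

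The relatives with restricted expression were silent or scarce. Rpl10l and Rpl39l, known from testis, and Rps4l had 0 counts in every library, which allows up to 3 counts per library, and Rpl3l, the heart and muscle form of Rpl3, had a mean of 0.111 counts. Rpl3 itself, a core protein of the peptidyl transferase centre, had 1103 normalised counts on average. Rpl22l1 (117 on average, against 457 for Rpl22), Rps27l (477, against 410.2 for Rps27) and Rpl36al (612, against 203 for Rpl36a) were expressed. Rps23rg1, a gene derived from Rps23 that is no ribosomal component, had 4.84 counts on average and Rpl27rt 0.0588, both under the filter, as were Rpl3l and the 6 genes at 0.

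In the LL against PP comparison in males, 0 of the 84 genes passed the test (DESeq2 adjusted p under 0.05, and a ratio either no lower than 1.3 or no higher than 0.7), where 0.283% of all genes did. At an unadjusted p under 0.05 there were 5 of 84, where 7.83% of all genes were. edgeR and limma on log2(TPM + 1) also called 0. The median log2 fold change of the genes was 0.07, against 0.00 over all genes. Rps16, of the small subunit, had the smallest p with a log2 fold change of 0.79 ± 0.30 (SE, adjusted p = 0.212). Its counts were 266, 238, 171 and 288 in PP males and 216, 379, 733 and 331 in LL males, which overlap, and without male LL 3 the fold change was 0.36.

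In females, LL against PP also gave 0 of 84, where 0.658% of all genes passed, and edgeR and limma called 0. There were 8 at an unadjusted p under 0.05 by DESeq2, where 13.0% of all genes were. Of these 8, 7 were higher in LL, where 6.65% of all genes were at this p and higher. The genes leaned one way: 67 of 84 were above 0, against 51.6% of all genes, with a median log2 fold change of 0.17 (quartiles 0.05 and 0.31) against 0.01 over all genes. Leaving out 1 mouse moved this median to between 0.09 and 0.24, and it was 0.09 without female LL 1, 0.10 without female LL 4 and 0.11 without female LL 5 or female PP 5. Marker sums of other cells also differed between these groups: the Kupffer cell and macrophage markers summed to 853 to 1066 normalised counts in PP females and 510 to 835 in LL females, with no overlap, and the 6 erythroid markers to 1282 to 2275 and 1126 to 6057, with medians of 1723 and 4882. Their part in the lean was not tested.

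The same lean was found in other short transcripts. In the female comparison the median log2 fold change of all other genes was 0.31 below 500 bases (218 genes), 0.25 from 500 to under 1000 bases, 0.12 from 1000 to under 2000, -0.01 from 2000 to under 4000 and -0.14 from 4000 bases. The ribosomal protein genes gave 0.37 below 500 bases (13 genes), 0.14 from 500 to under 1000 bases (61 genes) and -0.09 from 1000 to under 2000 bases (9 genes), so they lay above the other genes in the shortest class and below them in the longer ones. In males the medians of other genes over the same classes were between -0.06 and 0.07. Fragment length differed between the female groups, with 247 to 376.5 bases in LL and 369 to 631 in PP libraries. Genotype and fragment length can therefore not be cleanly told apart in females. With fragment length as a term in the fit the median of the ribosomal protein genes was 0.11.

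The sex comparisons gave 5 calls. Between females and males of the PP genotype 1 of 84 genes passed (where 6.45% of all genes did), and in the LL genotype 4 of 84 (where 6.12% of all genes did), so both shares were below those of all genes. At an unadjusted p under 0.05 there were 6 of 84 in PP (17.5% of all genes) and 16 of 84 in LL mice (20.0% of all genes). The interaction of genotype and sex gave 0 calls (0.119% of all genes), with 3 of 84 at an unadjusted p under 0.05 (5.67% of all genes), and 0 calls by edgeR. DESeq2 gave an adjusted p for 68 of the 84 in the interaction.

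Rps23 differed most clearly between the sexes in LL mice. It had 680.4, 313, 784 and 1011 normalised counts in LL males and 222, 150.2, 149.6, 211 and 211 in LL females. All 4 male LL mice lay above all 5 female LL mice. The log2 fold change of females against males was -1.89 ± 0.55 (SE, adjusted p = 0.0134). In PP mice it had 134, 150.0, 95.9 and 664 counts in males and 195, 108, 164, 471 and 326 in females. In PP mice 1 male and 2 females lay within the range of the male LL mice, and the sexes overlapped.

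The reads assigned to copies of Rps23 ran the other way. The gene with its copies had 898, 832, 821 and 667 normalised counts in PP males, 684, 877, 820.2 and 1012 in LL males, 864, 773, 734, 924 and 648 in PP females, and 1111, 867, 851, 1059.7 and 900.5 in LL females. The groups overlapped, and the log2 fold change of females against males in LL mice was 0.17 ± 0.14 (SE, adjusted p = 0.517). The share of these reads on Rps23 itself ran from 11.7% in male PP 3 to 99.9% in male LL 4, with a median of 22.4%, and was over 95% in male PP 4 (99.7%), male LL 1 (99.5%), male LL 3 (95.6%) and male LL 4.

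Rpl27, of the large subunit, showed the same pattern in much the same libraries. It had 57.6, 47.2, 34.8 and 367 normalised counts in PP males, 81.7, 37.2, 539 and 493 in LL males, 95.8, 72.7, 26.9, 226 and 49.3 in PP females, and 61.9, 22.7, 33.3, 87.6 and 33.9 in LL females. The high mice were male PP 4, male LL 3 and male LL 4, where 99.6, 100 and 99.8% of the reads of Rpl27 and its copies were on Rpl27, against a median of 12.7% over all mice. The log2 fold change of female LL against male LL was -2.59 ± 0.84 (SE, adjusted p = 0.0347) for the gene and 0.11 ± 0.20 (adjusted p = 0.817) with its copies.

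**Figure D2:**
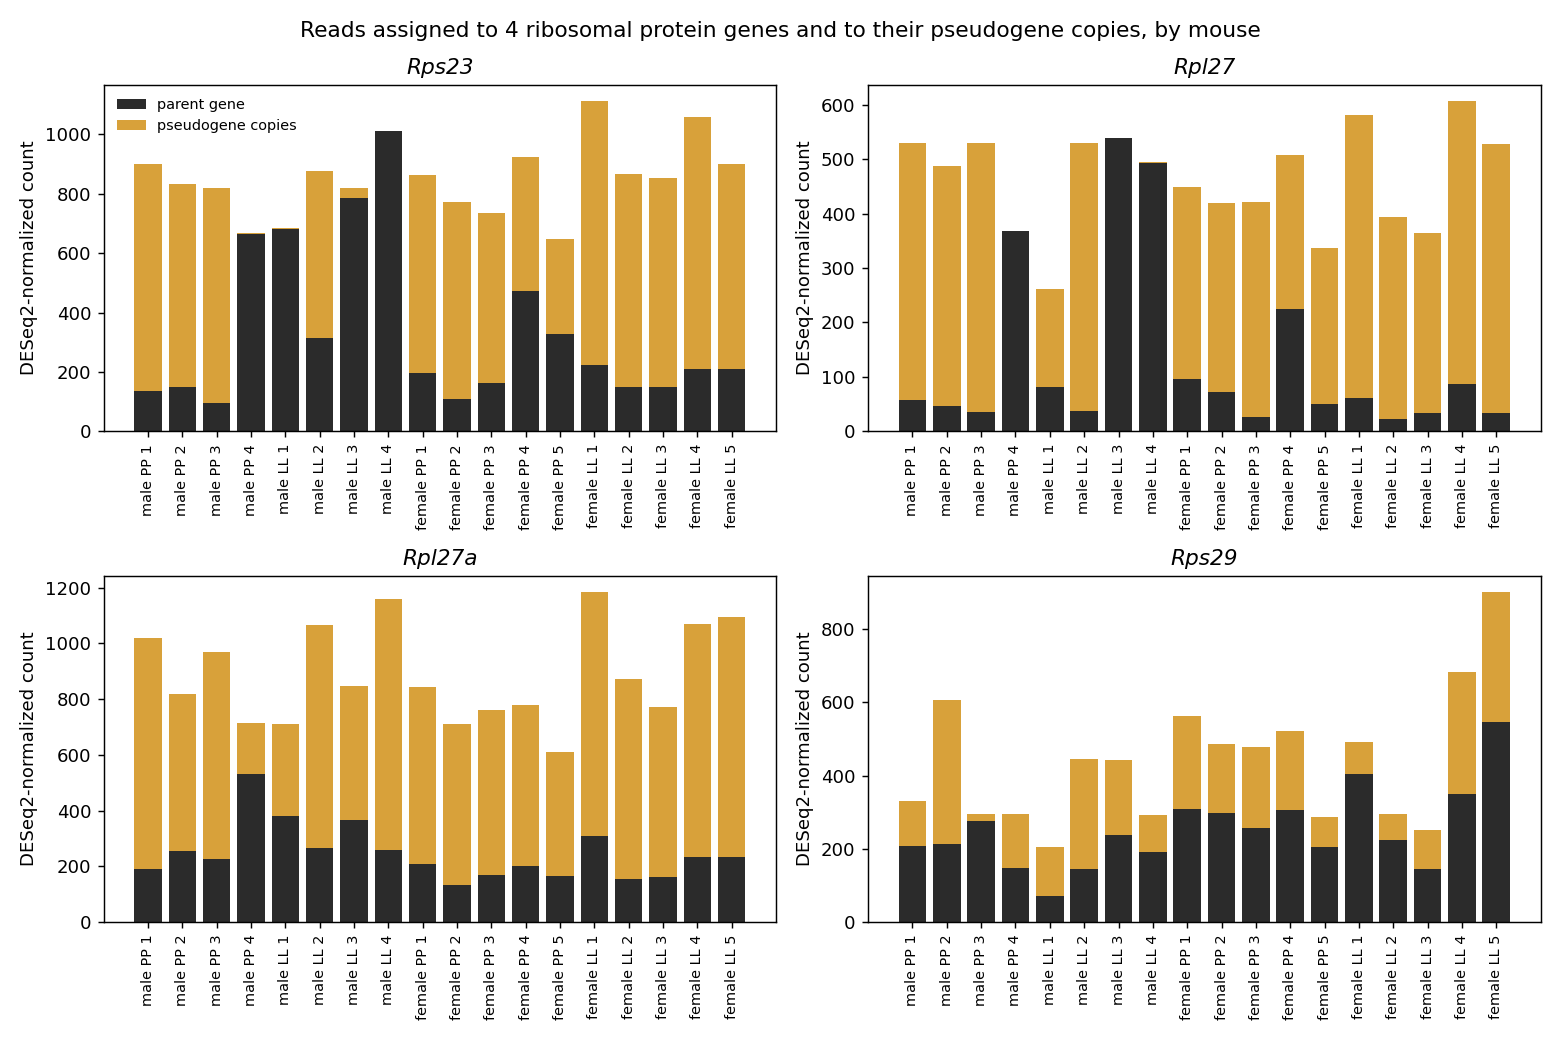
DESeq2-normalised counts (vertical axes) of Rps23, Rpl27, Rpl27a and Rps29 in black and of their pseudogene copies stacked in ochre, 1 bar per mouse in the order PP males, LL males, PP females, LL females. The black part of Rps23 runs from 95.9 to 1011 while whole bars run from 648 to 1111, and the bars of male PP 4, male LL 3 and male LL 4 are nearly all black for Rps23 and Rpl27.

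The other calls between the sexes were smaller. Rpl23, of the large subunit, had 1787, 1344, 1301 and 1688 normalised counts in LL males and 1218, 767, 836, 1122 and 708 in LL females, with no overlap, and the log2 fold change was -0.72 ± 0.21 (SE, adjusted p = 0.0149). With its 1 copy, Gm9794 on chromosome 6, female LL had 1645, 1274, 1298, 1416 and 1148 and male LL 1788, 1607, 1301 and 1688 counts, which overlap, and the fold change was -0.23 ± 0.15 (adjusted p = 0.380). Rps29 was higher in female than in LL males, by 1.04 ± 0.32 on the log2 scale (SE, adjusted p = 0.0255), with 403, 223, 144, 349 and 546 against 71.3, 146, 238 and 191 counts. These 2 groups overlap, and with its copies the fold change was 0.60 ± 0.33 (adjusted p = 0.296).

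Rpl27a, of the large subunit, was the 1 gene called in PP mice. It had 192, 254, 227 and 530.2 normalised counts in PP males and 208, 132, 169.5, 201 and 164 in PP females, and the groups overlap. The log2 fold change of females against males was -0.79 ± 0.27 (SE, adjusted p = 0.0463), and -0.25 ± 0.16 (adjusted p = 0.487) with its copies, which held 72.1% of the reads. Without male PP 4, whose Rpl27a count was highest, the fold change was -0.36 and no longer called. Rpl36al in PP mice (log2 fold change -0.43, adjusted p = 0.0463) and Rpl4 in LL mice (-0.27, adjusted p = 0.0373) passed the p limit but not the fold limit. Of the 4 calls in LL mice, 1 was made without male LL 4, 1 without female LL 5 and 2 without male LL 1, and there were 6 calls without male LL 3.

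Summed with their copies, the genes gave other calls. Of the 82 genes then tested, 0 passed between the sexes in PP mice (6.49% of all genes), 0 in LL mice (6.11%), 0 in the interaction (0.0826%), and 0 by genotype in males (0.275%). In females 1 passed by genotype, where 0.698% of all genes did. This was Rpl17, a large-subunit protein, with 1161, 1124, 1123, 1404 and 898 counts with its copies in PP and 1744, 1536, 1419, 1785 and 1288 in LL mice. Of the LL mice 4 lay above all PP mice, and the log2 fold change was 0.44 ± 0.13 (SE, adjusted p = 0.0437), while Rpl17 alone gave 0.07 ± 0.59 (adjusted p = 0.978). In this comparison 17 of the 82 were at an unadjusted p under 0.05 and higher in LL, where 6.78% of all genes were, and the median was 0.21. With fragment length also in the fit, 0 passed and the median was 0.14.

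**Figure D3:**
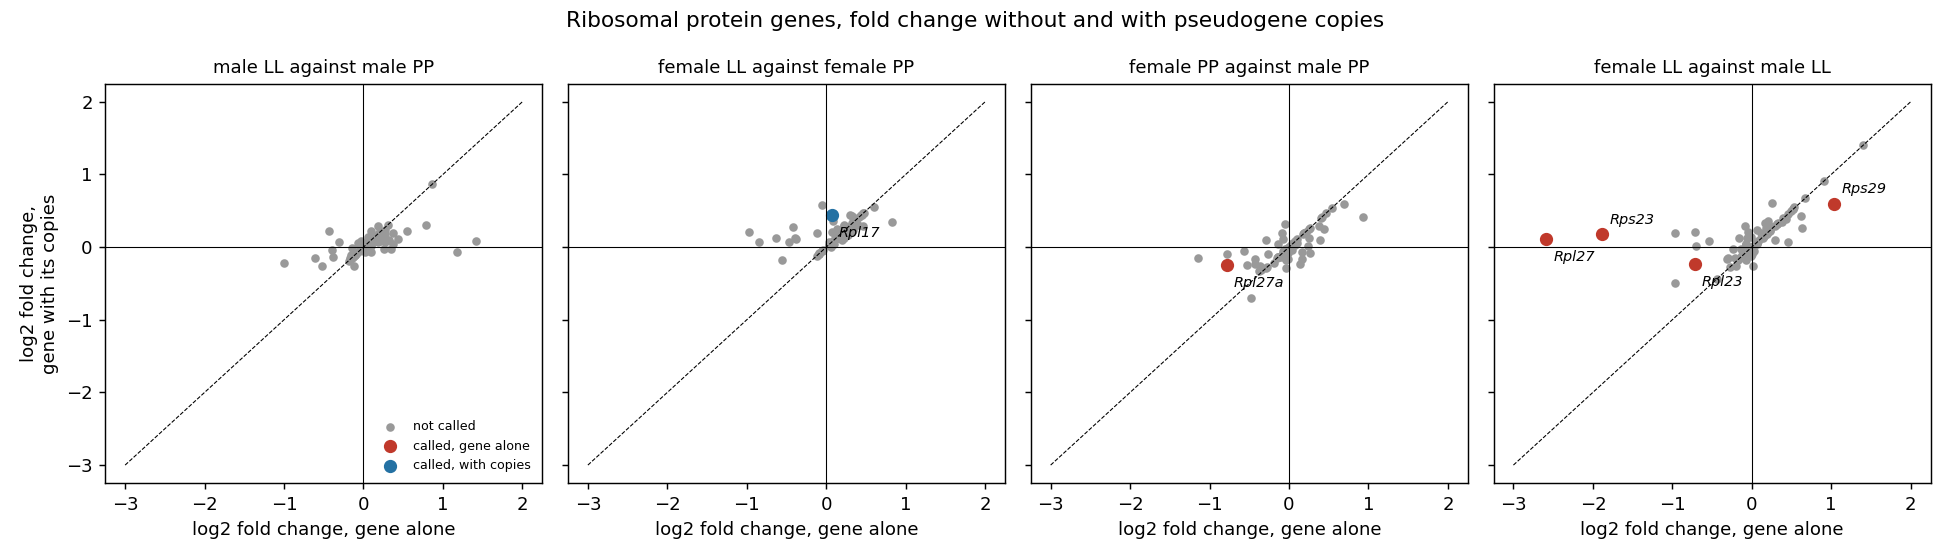
Log2 fold change of each ribosomal protein gene alone (horizontal axes) and with its pseudogene copies (vertical axes) in 4 comparisons, with the line of equal values dashed. Genes called alone (red) are Rpl27a in PP mice and Rpl27, Rps23, Rpl23 and Rps29 in LL mice, where Rpl27 moves from -2.59 to 0.11 and Rps23 from -1.89 to 0.17, and Rpl17 (blue) is called only with its copies.

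The estimated counts of Rpl10 and Rpl10-ps3 tended to run in opposite directions across libraries, and how single reads were assigned was not tested. Rpl10, a large-subunit protein of the late steps of subunit assembly, had 760.0, 2251, 2066 and 1078 normalised counts in PP males, 818, 2310.2, 1612 and 2636 in LL males, 2653, 2287, 2503, 1112 and 1549.8 in PP females, and 1356, 933, 1355, 1172 and 815 in LL females. Rpl10-ps3 had 1664, 0, 187 and 659 in PP males, 479.5, 0, 746 and 0 in LL males, 0, 0, 0, 1041 and 457 in PP females, and 1724, 1159, 852, 1520.3 and 1517 in LL females. The libraries at 0 for Rpl10-ps3 were those with 2251 or more for Rpl10. The sum of both averaged 2166 ± 298 (SD) in PP males, 2150.2 ± 586 in LL males, 2321 ± 260.3 in PP females and 2481 ± 404 in LL females.

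In the female genotype comparison Rpl10 had the smallest p of the 84, with a log2 fold change of -0.84 ± 0.31 (SE, adjusted p = 0.156). With Rpl10-ps3 and the other copies added the fold change was 0.07 ± 0.16 (adjusted p = 0.844). Rpl35rt was at 0 in male PP 4 and male LL 1 and took up to 63.4% of the reads of Rpl35 and Rpl35rt in another male LL mouse.

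**Figure D4:**
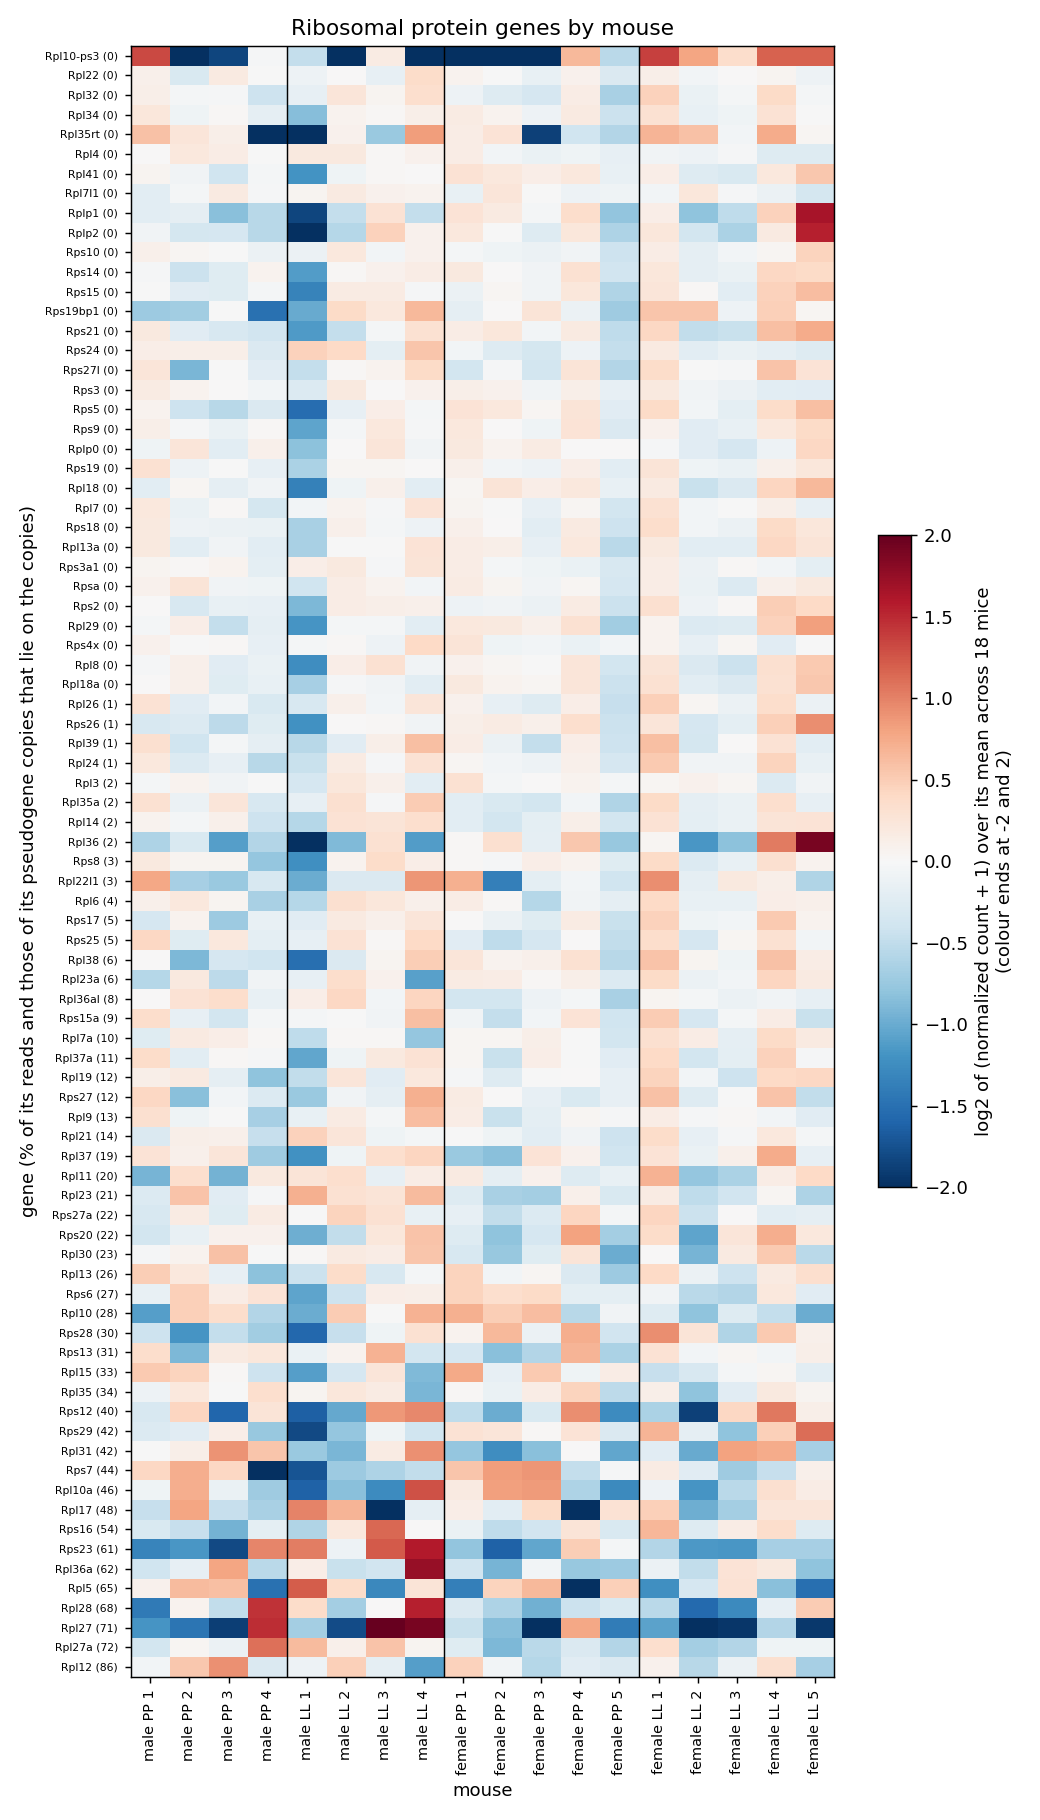
Normalised count of the tested ribosomal protein genes, all but 1 of the 84, in each mouse relative to its mean over the 18 mice, as log2 of (count + 1), red above and blue below, with genes ordered by the share of reads on pseudogene copies (in brackets) and lines between PP males, LL males, PP females and LL females. Most rows near the top differ little apart from male LL 1, which is blue for many genes, and female LL 5. Rpl10-ps3 and Rpl35rt, which have no copies of their own, also lie near the top and change strongly between mice. Rows near the bottom, such as Rps23, Rpl27 and Rpl28, change from mouse to mouse within a group.

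The spread between mice of a group followed the copies. The within-group coefficient of variation (CV) had a median of 19.3% in the 44 genes with under 5% of reads on copies, 23.9% in the 20 genes with 5 to under 30%, and 45.3% in the 18 genes with 30% or more. With copies added the medians were 19.2, 16.6 and 20.3%. The median over all tested genes was 22.2%, and over the 3382 genes with a mean of 100 to 3000 counts, the range of nearly all ribosomal protein genes, it was 15.8%. The CV fell for Rps23 from 59.7 to 13.6% and for Rpl27 from 114 to 20.9%, whereas for Rpl12 it rose from 35.7 to 68.3%.

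As a measure of likeness, each gene was set against the sum of the others. The 3 genes most like the sum of the others over the 18 libraries were Rpl13a (Spearman rho = 0.89), Rpl14 (0.85) and Rpl32 (0.83), and the 3 least alike were Rpl5 (-0.49), Rpl7l1 (-0.33) and Rpl4 (-0.08). Rpl5, which binds the 5S ribosomal RNA, has 65.3% of reads on copies and gave 0.07 with them, while Rpl4 has none and varied least, with a within-group CV of 7.54%. Genes of the same library share its depth and fragment length, so these values describe the libraries as well as the genes.

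Male LL 1 and female LL 5 stood out at opposite ends. The stalk proteins Rplp1 and Rplp2, which form the dimers that bind Rplp0, had 140.0 and 35.0 normalised counts in male LL 1 and 1576 and 466 in female LL 5. In the other 16 mice Rplp1 lay between 279 and 692 and Rplp2 between 102 and 219. Rpl36, of the large subunit, had 15.6 and 437 in these 2 mice and 51.4 to 239 in the others. None of the 3 passed the test by genotype or sex, the smallest adjusted p being 0.148 for Rpl36 in female against male LL mice, with a log2 fold change of 1.41 ± 0.61 (SE). In that comparison Rpl36 was called with a length offset (1.83, DESeq2 adjusted p = 0.0320), with limma on TPM (2.14, adjusted p = 0.0364) and without male LL 3 (2.06, DESeq2 adjusted p = 0.0211), and limma also called it between the sexes in PP mice (1.52, adjusted p = 0.0352).

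In these 2 libraries, and in several others, the levels were related to GC content. Over the 44 genes with under 5% of reads on copies, the log2 level relative to the mean of all mice fell with the GC content of the transcripts in male LL 1 (Spearman rho = -0.56 across genes) and rose in female LL 5 (0.74). Female LL 3 was lower still (-0.61), and male LL 4 (-0.55), male PP 1 (-0.51) and male PP 3 (-0.48) were somewhat nearer to 0. The highest value besides female LL 5 was 0.42, in female PP 4. The 14 genes highest in GC (55.3 to 59.0%) had medians of -1.10 in male LL 1 and 0.49 in female LL 5, and the 14 lowest (39.9 to 49.6%) medians of -0.22 and -0.18. The 10854 other tested genes went the same way, with rho of -0.45 and 0.55, and over the 18 mice the sign for 82 ribosomal protein genes and for other genes was the same in 15. Male LL 1 also had the highest mitochondrial share, 17.9% of counts, and female LL 5 a fragment length of 251 bases, and the part of these in the result was not tested. Genes are not independent replicates here.

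**Figure D5:**
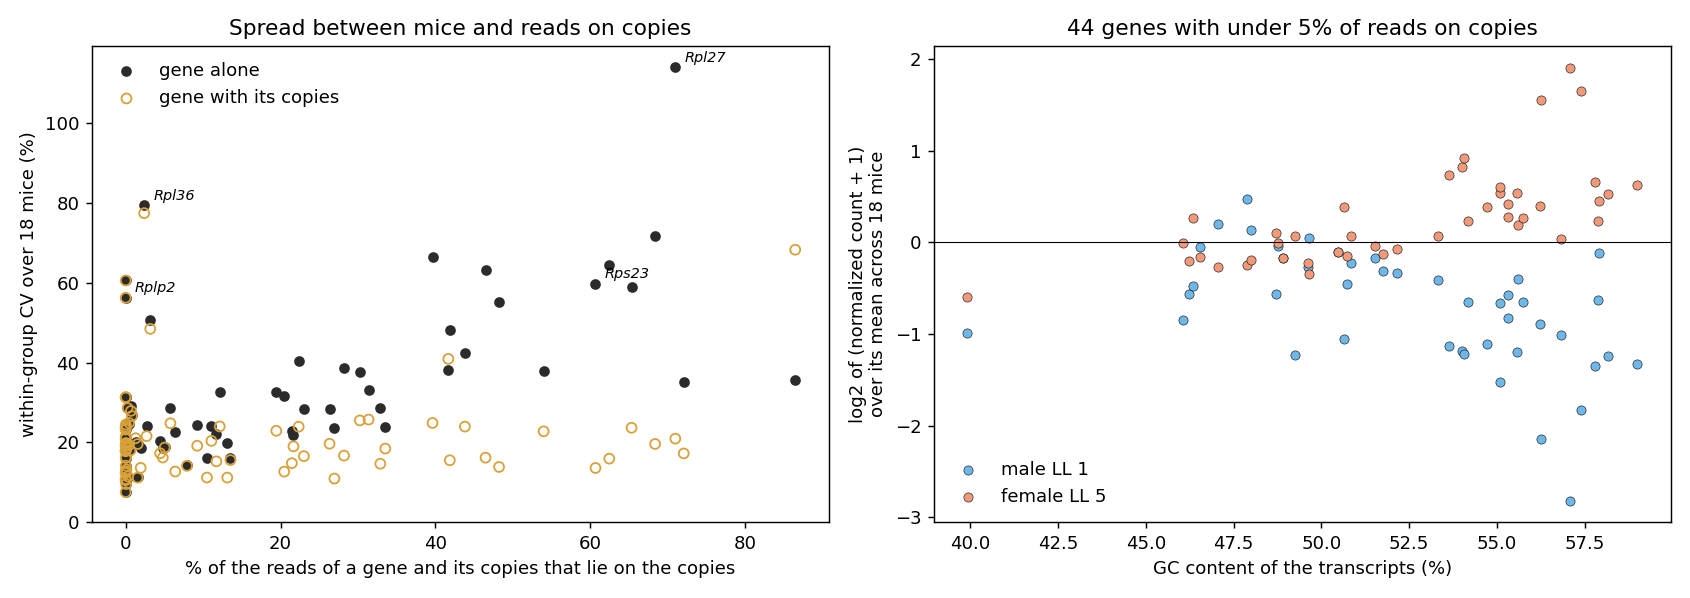
Left, within-group coefficient of variation (CV) over 18 mice (percent) of each gene alone (black) and with its copies (open ochre) against the percent of reads on copies. Right, for 44 genes with under 5% of reads on copies, the log2 level relative to the mean of 18 mice against GC content in male LL 1 (blue) and female LL 5 (orange). The black points rise to 114% for Rpl27, and on the right Rpl36 is the lowest blue point at -2.82 and the highest orange point at 1.91.

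Rplp0 itself had 1080.0, 1359.7, 992 and 1226 normalised counts in PP males, 647, 1157, 1356 and 1092 in LL males, 1314, 1211, 1283, 1155 and 1150.1 in PP females, and 1131, 981, 914, 1075 and 1534 in LL females. The groups overlapped, with male LL 1 lowest and female LL 5 highest. Log2 fold changes of LL against PP were -0.13 ± 0.19 (SE, adjusted p = 0.884) in males and -0.12 ± 0.17 (adjusted p = 0.804) in females, and those of females against males 0.07 ± 0.18 in PP and 0.08 ± 0.18 in LL mice. On the log2(TPM + 1) scale limma called Rplp0 higher in PP females than in PP males, by 0.72 (adjusted p = 0.0458), where the median of all genes was 0.50, and likewise Rpsa, by 0.92 (adjusted p = 0.0241). Rpl3 (-0.03 ± 0.13 and -0.10 ± 0.11 by genotype in males and females), Rpsa, the laminin receptor and small-subunit protein (-0.10 ± 0.15 and 0.04 ± 0.13), and Rps27a, made as a fusion with ubiquitin (0.20 ± 0.21 and 0.03 ± 0.19), were not called by genotype. Rps6, the substrate of S6 kinase, had -0.44 ± 0.24 and -0.39 ± 0.22, and with its copies 0.22 ± 0.12 in males.

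With fragment length as a term beside the groups, 0 of the 84 genes passed (0.0366% of all genes, edgeR 0) and 4 were at an unadjusted p under 0.05 (4.47% of all genes). The median change was -0.04 on the log2 scale per 100 bases of fragment length. The smallest p was that of Rpl36a, 0.41 ± 0.12 per 100 bases (SE, adjusted p = 0.228), and with its copies this was -0.03 ± 0.06. Without male LL 4 it was 0.22, and without male PP 4 it was 0.48 and called (DESeq2 adjusted p = 0.0113). With copies added 0 of 82 passed (0.0367% of all genes).

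Other genes of the translation machinery were counted in the same way. By genotype 0.283% of all genes passed in males and 0.658% in females, and between the sexes 6.45% in PP and 6.12% in LL mice, so counts of 0 or 1 in lists this short say little about them. The lists that follow were chosen with earlier results known. Of 18 other TOP mRNAs, among them the elongation factors Eef1a1 and Eef2 and the poly(A)-binding protein Pabpc1, 0 passed in any comparison, with medians of 0.16 by genotype in males and 0.11 in females. Of 21 ribosome biogenesis genes 0 passed by genotype, and in LL mice Rrn3, an initiation factor of RNA polymerase I, was lower in females by -0.65 ± 0.21 (adjusted p = 0.0325). Of 15 mTOR and Myc pathway genes 0 passed by genotype, and Rps6kb1, the S6 kinase, was lower in female than in LL males by -0.54 ± 0.15 (adjusted p = 0.0106). Of 78 mitochondrial ribosomal protein genes 0 passed by genotype in either sex, with medians of 0.13 in males and 0.22 in females. In females 69 of the 78 were above 0, a higher share than the one given above for all genes. At an unadjusted p under 0.05 were 19, where 13.0% of all genes were. Short genes outside the cytosolic set also leaned up in females, with medians of 0.31 below 500 bases and 0.25 from 500 to under 1000. The part of transcript length was not tested here. Of the 78, 1, Mrps18b, was lower in female than in LL males.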

How the data were processed

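Liver RNA of 18 mice was sequenced by the authors, 1 library per mouse. Per the labels and the study's methods, the authors quantified the reads with Salmon 1.4.0 (GENCODE M26, GRCm39) and checked them with FastQC. The deposited tables hold estimated counts, TPM, transcript lengths and effective lengths per transcript. Estimated counts were summed per gene through GENCODE M39, which holds 137570 of the 139225 deposited transcripts, with 99.8% of the counts in the library where this share was lowest, and rounded. Groups were compared with DESeq2 1.42.0 (R 4.3.3) over the genes that reached 10 counts in 4 or more libraries, calling an adjusted p under 0.05 with a ratio no lower than 1.3 or no higher than 0.7. The interaction and the fragment length term had no fold limit. edgeR 4.0.16 and limma 3.58.1 on log2 of the deposited TPM + 1 were alternatives, and the scripts were tested on simulated data. Log2 fold changes carry their SE. Depth was 3794671 to 6613905 counts per library, which limits only the scarce genes here. The upper bound given for the silent genes covers counting error only, whereas the SE includes the spread between mice.

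Copies are annotated pseudogenes, and the 5 intronless members, with at least 50% of their 31-base words in 1 gene of the group. Adding them was chosen after seeing the data. Which transcript holds a shared read is an estimate that the authors' quantification made per library. Fragment length is the median of length minus effective length in transcripts of 3000 bases or longer, a measure that may hold more than fragment size.

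The members, the lists and the rule for named genes were chosen with earlier results of these data known. Named are genes called in any comparison, the 5 of smallest p in each, Rplp0, Rplp1, Rplp2, Rpsa, Rps6, Rpl3 and Rps27a, genes named as relatives of another with their partners, the extremes of level and length, and those most and least like the sum of the others. Some items are not reported here. Others were named after their values were seen (Rpl36, Rpl17, Rpl10-ps3, Rpl35rt).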

Additional observations from a re-analysis of the deposited data

Results flagged for a closer look

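In 16 measures over 4 groups, 4 of the 64 sets of 4 or 5 mice held a mouse far from the others by Dixon's criterion, where chance gives about 1 in 20. Male PP 4 had 367 normalised counts of Rpl27, where the other male PP mice had 34.8 to 57.6, and 664 of Rps23, where they had 95.9 to 150.0. Both genes have identical pseudogene copies and nearly all of their reads on the gene in this library. Female LL 5 had 466 of Rplp2, where the other female LL mice had 102 to 186, and female PP 1 had 1357 of Rpl3, where the others had 1073 to 1152.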

How the results depend on the processing

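Over all alternatives, 345 values for whole comparisons stayed close to those given and 57 moved, and of the values for named genes 820 kept direction and call, 52 lost the call, 20 gained it and 27 reversed. The number of genes called by genotype was 1 in males with protein-coding transcripts only and 1 with a replicate block, and 1 in females with protein-coding transcripts only, with named pseudogenes or with copies added. Between the sexes in PP mice it was 0 with edgeR, without a filter, with fragment length or age as a term, with protein-coding transcripts only, and with copies added with or without fragment length, 3 with the replicate block and 18 with limma on TPM, where the median of all genes was 0.50. In LL mice it was 1 with edgeR or fragment length, and 0 with copies added with or without it. The interaction gave 2 with the replicate block, and the fragment length term 1 with a length offset and 3 with protein-coding transcripts only. Same-numbered mice had correlations of -0.17 to 0.16, a weak likeness that cannot settle whether the replicate number pairs mice. Leaving out 1 mouse gave 0 to 2 calls by genotype in males and in females, 0 to 2 between the sexes in PP and 1 to 6 in LL mice, and 0 to 1 for the interaction and for fragment length. The share of all genes called is not given for most of these alternatives, so such counts do not show whether ribosomal protein genes stood apart.

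The median log2 fold change was -0.33 with a length offset and 0.52 with limma between the sexes in PP mice, 0.42 with limma in LL mice and -0.13 with limma for the interaction. The shares of counts, in the order PP males, LL males, PP females, LL females, were 1.47, 1.50, 1.41 and 1.53% without mitochondrial and Mup genes and 2.06, 2.39, 2.98 and 3.00% in TPM. Named pseudogenes brought PP males to 1.03%, and copies brought PP males to 1.09, PP females to 1.38 and LL females to 1.52%.

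Reversed log2 values were, with protein-coding transcripts only, Rps23 by genotype in males (-0.61), between sexes in LL mice (0.83) and in the interaction (0.50), and Rpl12 for fragment length (0.52). With limma they were Rpl36al (0.26) and Rps25 (0.20) between sexes in PP mice and Rpl7a in the interaction (-0.081). With named pseudogenes they were Rps23 between sexes in LL mice (0.18) and in the interaction (0.20), and for fragment length Rpl28 (-0.12), Rpl31 (-0.057) and Rpl36a (-0.076). With copies, and then with fragment length as well, they were Rpl10 by genotype in females (0.070, 0.078), Rpl27 (0.11, 0.011) and Rps23 (0.17, 0.14) between sexes in LL mice, and Rpl10 (0.10, 0.11), Rpl27 (0.28, 0.23) and Rps23 (0.20, 0.18) in the interaction. With copies the fragment length values of Rpl28, Rpl31 and Rpl36a were -0.12, -0.057 and -0.027. The cause of these changes was not tested. Depth limits Rps19bp1 and Rpl12, and which library's reads fall on a gene or its copy limits the 18 genes with 30% or more of reads on copies.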
